A study of Rattus norvegicus with 15 samples.

Results

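The genes described here were 37 named glycolysis enzymes and glucose or lactate transporters, with the first enzymes of glycogen storage and the mitochondrial pyruvate carrier. They were taken by gene name from the table of read counts, with a count required in at least 3 of 15 libraries. All 37 names were found, on 39 loci of 18916 that met the same requirement, because Pkm and Pfkfb4 each name 2 loci. Of these 39 loci, 38 passed the filter on low counts and were tested among 14147 genes. The insulin-responsive transporter gene Slc2a4 did not pass. Its highest library, Ddx5 siRNA plus stress replicate 1, held 2.15 CPM, against 0 to 0.581 CPM in the other 14.

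Glycolysis converts glucose to pyruvate in the cytosol. Glucose enters through facilitative transporters of the Slc2a family, hexokinases trap it as glucose 6-phosphate, and phosphofructokinase makes the committed step, which fructose 2,6-bisphosphate made by the Pfkfb enzymes speeds up. Pyruvate is either reduced to lactate by lactate dehydrogenase and exported through monocarboxylate transporters, or carried into mitochondria and oxidised by pyruvate dehydrogenase, which the Pdk kinases switch off. Cartilage has no blood vessels, and chondrocytes are known to draw most of their energy from glycolysis.

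RNA-seq of total RNA had been run on primary chondrocytes from the temporomandibular joint (TMJ, the jaw joint) of rats, in a series titled for the RNA helicase DDX5 in osteoarthritis of that joint. The 5 groups of 3 libraries were a Ddx5 siRNA with mechanical stress, the Ddx5 siRNA alone, a control siRNA, mechanical stress alone, and a control whose label does not say what it received. How and for how long stress was applied, how the siRNA was delivered, and the strain and age of the animals are missing from the labels, and no group joined stress to the control siRNA, so under stress the Ddx5 siRNA and siRNA delivery cannot be told apart. The labels do not tie a group's 3 libraries to separate cultures or animals, so each p-value measures spread among libraries alone, and that spread may be technical.

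Libraries held 14309005 to 16219775 counts, at which 3 counts correspond to 0.18 to 0.21 CPM, the usual scaling of counts to library size, here with TMM factors. Ddx5 was lower with its siRNA, at 221, 252 and 207 CPM against 397, 398 and 360.0 CPM with the control siRNA (log2 fold change -0.77, SE 0.13, edgeR adjusted p = 0.023). Under stress it stood at 164, 241 and 194 CPM with the siRNA and at 360.3, 416 and 418 CPM without it (-1.0, SE 0.13, edgeR adjusted p = 0.014). Of the 9 chondrocyte markers, the defining cartilage collagen Col2a1 averaged 0.792 to 3.05 CPM per group, Col9a1 and Matn3 stayed under 0.4 CPM, and Acan and Col11a1 averaged 109 to 296 and 1460 to 2220 CPM. Of the 7 fibroblast markers, Col1a1 averaged 34300 to 64500 CPM, Col1a2 1960 to 4050, Col3a1 3360 to 7910 and Thy1 682 to 1630. Pdgfra averaged 83.3 to 168 CPM, and Dcn and Lum averaged 2.92 to 5.9 and 3.23 to 5.68 CPM. Sums over the fibroblast and chondrocyte markers given below are thus mostly Col1a1 and Col11a1. Of the 8 macrophage and leukocyte markers, Cd14 averaged 18.6 to 32.5 CPM per group, Cd68 1.26 to 1.53 and Csf1r 0.281 to 1.39, and Tyrobp had no count. Of 7 muscle markers found, Myh1 averaged 7.4 to 16.3 CPM and Tnnt3 7.1 to 9.4, and Myog had no count. The 4 endothelial markers found summed to 0.186 to 1.59 CPM per library, with no count for Cdh5. In bulk libraries, fewer cells of a type and less RNA per cell cannot be told apart.

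The libraries of replicate 1 with the Ddx5 siRNA, with and without stress, stood apart. Their counts differed from those of replicates 2 and 3 by a chi-square of 50.9 to 67.7 per degree of freedom, against 8.04 to 32.7 for every other pair of libraries within a group. Of the 38 tested loci, 32 had their highest level of the group in replicate 1 of the Ddx5 siRNA plus stress group, and 32 in replicate 1 of the Ddx5 siRNA group. Over all genes tested these shares were 41.5% and 40.7%. In the stress, control and control siRNA groups replicate 1 was highest for 21, 23 and 17 of the 38 loci, against 35%, 37.9% and 34.3% of all genes. The calls of these loci that rest on the Ddx5 siRNA groups are therefore given with and without both libraries. Values of marker genes and of genes of neighbouring pathways are given with all libraries only.

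**Figure D1:**
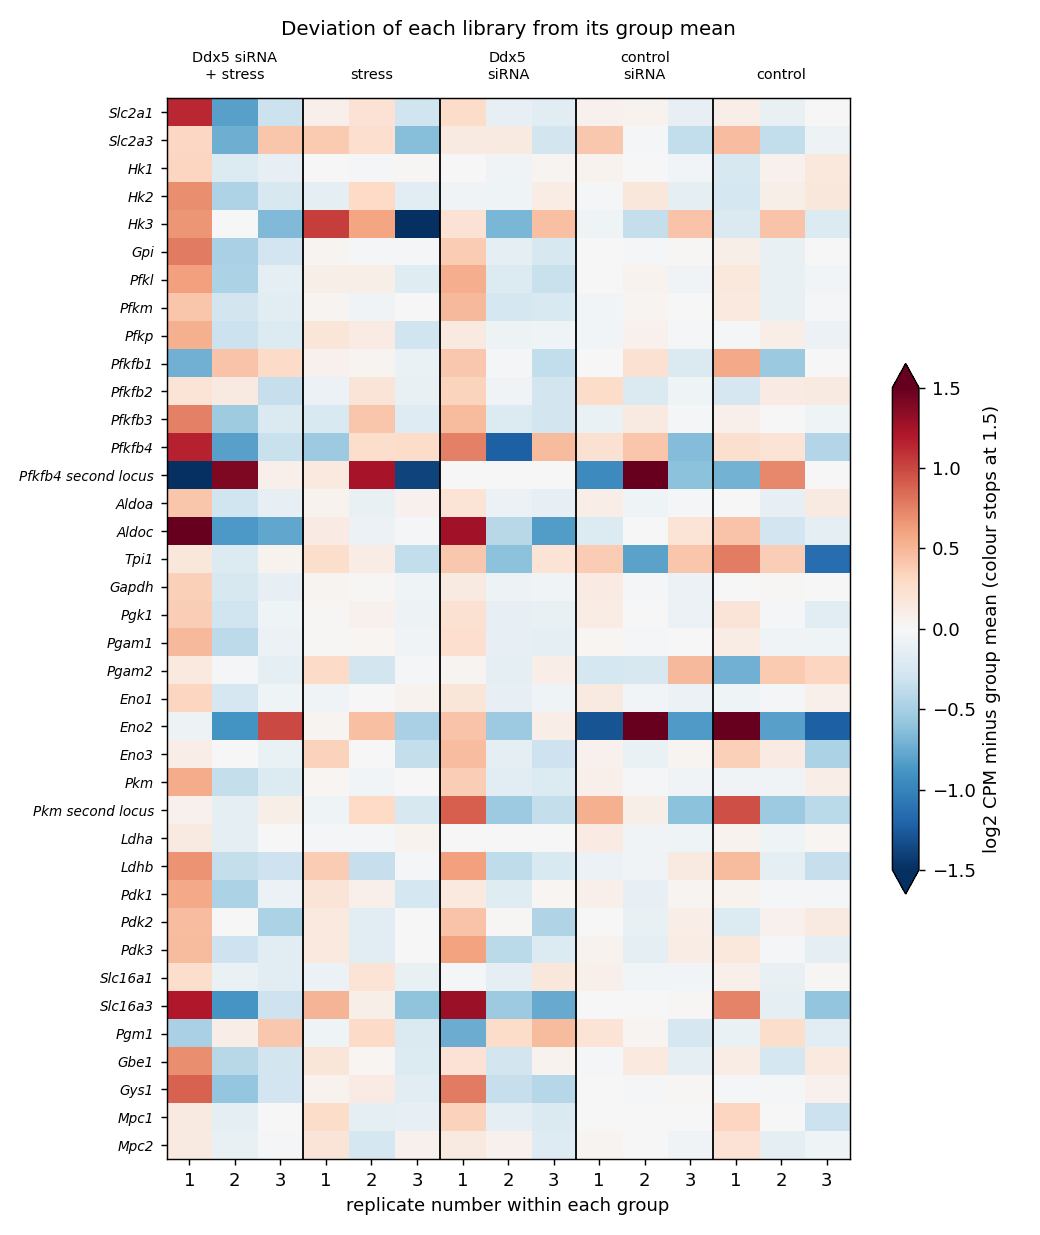
Deviation of each library from its group mean in log2 CPM (colour) for every glycolysis and transport locus (rows) and all 15 libraries (columns, by group and replicate number). Replicate 1 is the highest library for 32 of 38 tested loci in both groups with the Ddx5 siRNA, and Pgm1 runs the other way.

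Mechanical stress was first compared with the control, without siRNA. Of the 38 tested loci 8 rose and none fell at an adjusted p under 0.05, in a test where 1.06% of all genes rose and 0.346% fell. The 8 were the transporter gene Slc2a1, the hexokinase genes Hk1 and Hk2, Pfkl, Pfkfb3, Ldha, Pdk1 and the glycogen synthase gene Gys1. The median log2 fold change over the 38 loci was 0.44, against 0 over all genes, and 31 (against 49.5% of all genes) had a positive value. The 3 stressed libraries lay above all 3 control libraries at 21 of the 38 loci and below them at none, where this was so for 11.3% and 10.4% of all genes. The 9 chondrocyte markers summed to 1430 to 1960 CPM under stress and 1720 to 2210 CPM in the control, the 7 fibroblast markers to 41400 to 45200 CPM under stress and 37500 to 43300 CPM in the control, and the 8 leukocyte markers to 28.1 to 42.5 CPM under stress and 25.1 to 34 CPM in the control, nearly all of it Cd14. The 7 muscle markers summed to 14.8 to 23.1 CPM under stress and 21.7 to 24.2 CPM in the control. Of all these markers Sox9, a chondrocyte factor, fell by 0.92 (edgeR adjusted p = 0.049) and Myh1, a muscle myosin, fell by 0.81 (adjusted p = 0.017), and the part of cell makeup in the results was not tested.

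Adding stress to cells with the Ddx5 siRNA gave a second estimate that shares no library with the first. Of the 38 loci 6 rose and none fell, where 1.05% of all genes rose and 0.141% fell: Slc2a1, Hk2, Pfkl, Pfkfb3, Pdk1 and the lactate and pyruvate carrier gene Slc16a1. The median log2 fold change was 0.48, with 32 positive values against 49.8% of all genes. The stressed libraries lay above the unstressed ones at 16 of the 38 loci and below them at none, against 8.72% and 6.53% of all genes. Without both replicate 1 libraries 6 also rose, where 0.892% of all genes did, with Gys1 (1.34, edgeR adjusted p = 1.4e-05) called and Slc16a1 (0.53, adjusted p = 0.091) not called. A fit of the 6 libraries of these groups alone called none, and 0.148% of all genes as higher (edgeR adjusted p of 0.13 to 0.32 for the 6 genes). The 9 chondrocyte markers summed to 2030 to 2360 CPM with stress and 2150 to 2410 CPM without, and the 7 fibroblast markers to 48500 to 80500 CPM with stress and 51000 to 80600 CPM without. The 7 muscle markers summed to 16.9 to 28.6 CPM with stress and 22.9 to 44.2 CPM without. Sox9 fell by 0.94 (edgeR adjusted p = 0.045) and Myh1 fell by 0.83 (adjusted p = 0.014), and the part of these markers in the result was not tested.

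Averaged over both stress effects, 17 of the 38 loci rose and none fell, where 4.07% of all genes rose and 1.48% fell. Positive values were found at 33 loci, against 49.1% of all genes. Without both Ddx5 siRNA replicate 1 libraries the 17 kept their calls and 21 rose, where 4.76% of all genes did. At least 1 gene rose at 12 steps, from glucose entry to lactate export, and none at the steps of Gpi, Tpi1, Gapdh, Pkm and the mitochondrial pyruvate carrier. The lowest values belonged to the second Pkm locus (-0.69, SE 0.34), Pfkfb1 (-0.29, SE 0.27), Mpc2 (-0.21, SE 0.10) and Eno3 (-0.14, SE 0.16), and none of these passed. No locus differed between both stress effects (edgeR, lowest adjusted p = 1, where 0% of all genes passed). At an unadjusted p under 0.05 there was 1, Slc16a1, as there were 3.12% of all genes, and DESeq2 called none. In the account of the steps that follows, each log2 fold change is stressed over unstressed with 3 libraries per group unless libraries are said to be left out, and levels are CPM. Each SE comes from the fit of all 15 libraries. It reflects spread pooled over the 5 groups, and not that of the compared libraries alone.

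**Figure D2:**
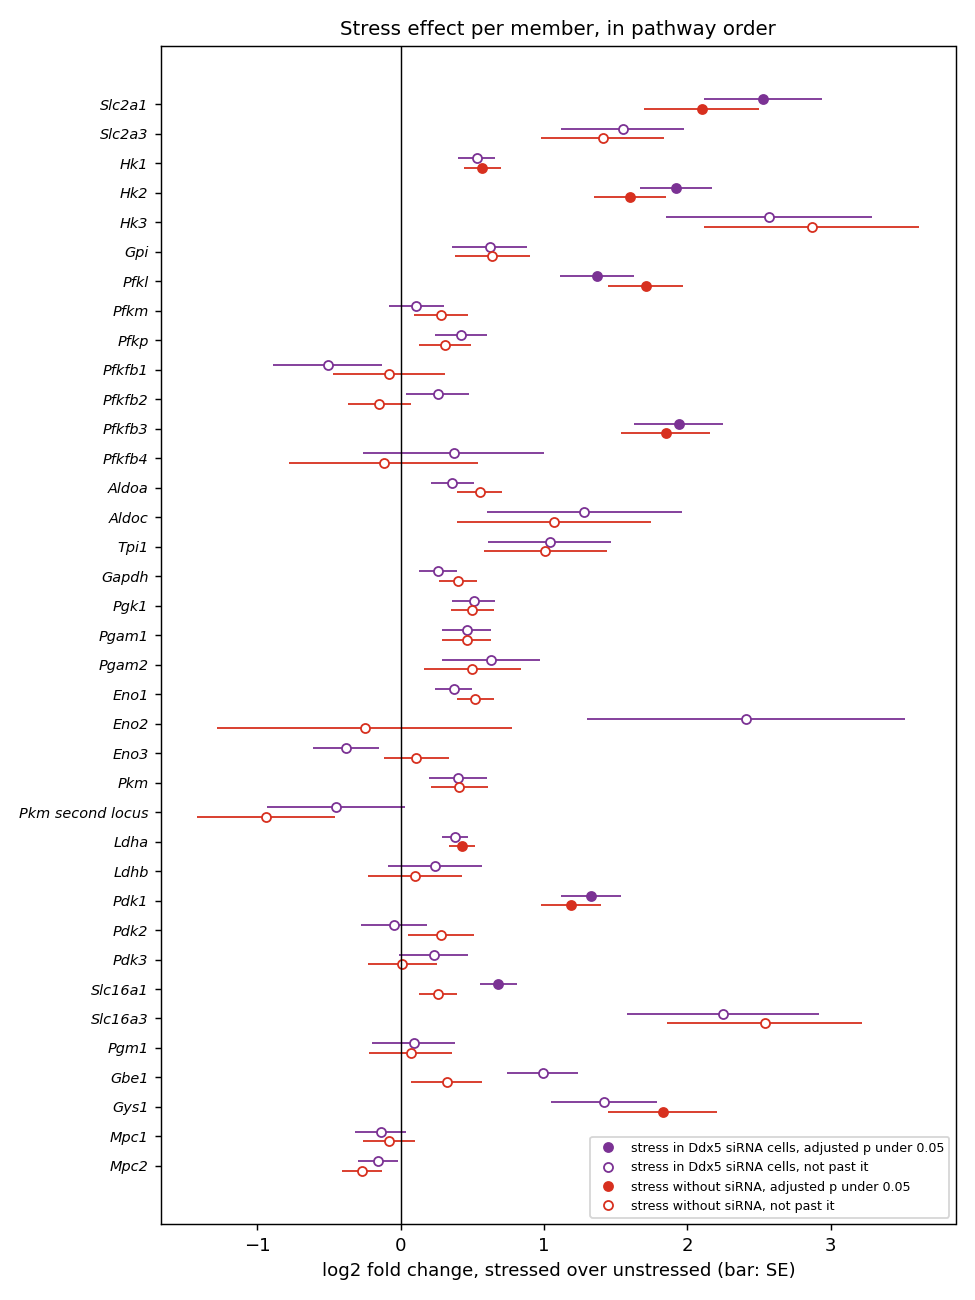
Log2 fold change of stressed over unstressed libraries with its SE for 37 tested loci in pathway order, in cells with the Ddx5 siRNA (purple) and without siRNA (red). Filled points have an edgeR adjusted p under 0.05, and Slc2a1, Hk2, Pfkl, Pfkfb3 and Pdk1 are filled in both. The SE rests on spread pooled over all 15 libraries. The second Pfkfb4 locus, near the detection floor, is not drawn.

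The 300-base windows around the RefSeq start sites of 4 genes called under stress are shown because they hold the letters of the hypoxia response element core, the site through which hypoxia-inducible factors (HIF) are known to act on many glycolysis genes. Each runs from 250 bases before to 50 bases after the start on the gene's strand in build GRCr8. Capitals mark ACGTG or GCGTG on either strand, so that CACGT and CACGC are the same motifs read from the other strand. The windows are chr5:138002272-138002571 (Slc2a1), chr17:71944683-71944982 (Pfkfb3), chr1:106507842-106508141 (Ldha) and chr3:77113264-77113563 (Pdk1), all on the plus strand.
Slc2a1: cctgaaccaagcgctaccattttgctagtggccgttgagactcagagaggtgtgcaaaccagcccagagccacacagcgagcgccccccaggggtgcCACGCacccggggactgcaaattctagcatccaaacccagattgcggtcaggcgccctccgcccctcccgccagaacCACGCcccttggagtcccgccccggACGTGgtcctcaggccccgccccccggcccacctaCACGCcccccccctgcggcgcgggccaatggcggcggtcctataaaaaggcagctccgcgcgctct
Pfkfb3: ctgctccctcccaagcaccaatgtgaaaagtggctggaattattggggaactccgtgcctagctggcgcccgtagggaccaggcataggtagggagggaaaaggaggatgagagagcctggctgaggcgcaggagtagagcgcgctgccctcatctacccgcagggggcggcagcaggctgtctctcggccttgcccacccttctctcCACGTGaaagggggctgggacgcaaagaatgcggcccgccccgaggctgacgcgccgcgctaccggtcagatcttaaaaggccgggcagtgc
Ldha: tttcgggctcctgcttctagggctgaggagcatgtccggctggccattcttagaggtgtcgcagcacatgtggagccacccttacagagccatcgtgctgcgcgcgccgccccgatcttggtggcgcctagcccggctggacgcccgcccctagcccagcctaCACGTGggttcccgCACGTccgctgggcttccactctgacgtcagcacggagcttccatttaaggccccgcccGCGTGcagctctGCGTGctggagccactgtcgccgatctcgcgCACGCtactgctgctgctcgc
Pdk1: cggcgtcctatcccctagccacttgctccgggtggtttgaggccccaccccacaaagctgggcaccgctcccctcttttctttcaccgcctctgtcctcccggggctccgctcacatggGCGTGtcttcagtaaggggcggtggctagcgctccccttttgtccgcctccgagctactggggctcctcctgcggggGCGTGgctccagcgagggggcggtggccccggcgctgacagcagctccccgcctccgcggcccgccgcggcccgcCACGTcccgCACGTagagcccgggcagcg

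ACGTG stood in a window of 19 of the 34 members that have one in the RefSeq table, 55.9%, against 20.9% of 27457 genes. GCGTG stood in 14 of 34 (41.2%, against 32.4% of genes). CACGTG, the E-box, which contains ACGTG, stood in 4 of 34 (11.8%, against 7.08%). The members' windows were also richer in G and C, with a median of 60.5% against 51.7%, so their base composition differs along with the motif. ACGTG stood in the windows of 11 of 15 members that rose in the average stress effect and of 8 of 19 that were not called. The 15 members that rose had 19 windows, so some had several, and the 19 members not called also had 19. Per window, ACGTG stood in 57.9% for members that rose and in 42.1% for those not called. The median of G and C was 63.3% for the former and 58.7% for the latter. Whether these shares differ was not tested. Hk2 and Slc16a3, which rose in the average effect, have neither ACGTG nor GCGTG in their windows. Pfkl and Gys1 have GCGTG only. A match is a description of letters and not of a bound site, and no window was found for Slc2a3, Slc2a4 and Pgk1.

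The glucose transporter genes Slc2a1 and Slc2a3 rose in the average effect. Slc2a1, which encodes the widely expressed glucose transporter GLUT1 (chromosome 5, 138154673 to 138182897; all positions are those of the deposited file, whose build is not stated), stood at 219.6, 241 and 168 CPM under stress and at 52.3, 45.2 and 49.2 CPM in the control. With the Ddx5 siRNA it stood at 611, 159 and 224 CPM under stress and 69, 52.3 and 50.8 CPM without. The stressed libraries were the higher in both sets without overlap, and replicate 1 with the siRNA was the highest of all 15. Slc2a1 rose by 2.10 without siRNA (SE 0.40, edgeR adjusted p = 0.029) and by 2.53 with the Ddx5 siRNA (SE 0.41, adjusted p = 0.011). The value with the siRNA was 1.89 without both replicate 1 libraries. Slc2a3, which encodes the high-affinity transporter GLUT3 (chromosome 4, 155408233 to 155631856), was low, at 3.17, 2.87 and 1.45 CPM under stress and 1.31, 0.650 and 0.838 CPM in the control, and at 3.32, 1.51 and 3.60 CPM with stress and 1.06, 1.06 and 0.750 CPM without in cells with the siRNA. It passed only in the average effect (1.48, SE 0.30, adjusted p = 0.0095). Another locus that the file describes with the same protein held 2361 counts over all libraries, against 376 at Slc2a3, so reads may be split between them.

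The hexokinase genes Hk1, Hk2 and Hk3 rose in the average effect. Hk2, the inducible hexokinase (chromosome 4, 113559427 to 113610243), stood at 99.4, 135 and 96.6 CPM under stress and 30.2, 38.5 and 40.5 CPM in the control. In cells with the Ddx5 siRNA its level was 240.2, 108 and 125 CPM under stress and 40.1, 39.6 and 44.9 CPM without. Neither set overlapped, and the log2 fold changes were 1.60 (SE 0.25, edgeR adjusted p = 0.0069) and 1.92 (SE 0.25, adjusted p = 0.0025; 1.46 without both replicate 1 libraries). Hk1, the hexokinase of most tissues (chromosome 20, 31912262 to 31956649), stood at 222, 218 and 225 CPM under stress against 126, 156 and 167 CPM in the control, and at 280.2, 195 and 206 CPM against 159, 152 and 162 CPM with the siRNA. It was higher in each stressed library by a smaller margin (0.57, SE 0.13, adjusted p = 0.038; 0.53, SE 0.13, adjusted p = 0.059; average 0.55, SE 0.09, adjusted p = 0.0018). Hk3 (chromosome 17, 10137974 to 10152956), a hexokinase known from blood cells, was near the detection floor, at 3.05, 2.18 and 0.315 CPM under stress and 0.178, 0.390 and 0.180 CPM in the control. With the siRNA it stood at 3.13, 1.92 and 1.14 CPM under stress and 0.397, 0.124 and 0.500 CPM without. It passed in the average effect only (2.72, SE 0.52, adjusted p = 0.0059, on few counts). The 8 macrophage and leukocyte markers, led by Cd14, summed to 28.1 to 42.5 CPM under stress and 25.1 to 34 CPM in the control, and to 21.2 to 28.8 CPM with stress and 18.6 to 26.6 CPM without it in cells with the siRNA. Their part in the Hk3 values was not tested.

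At the isomerase step, Gpi (chromosome 1, 90063411 to 90091287), which converts glucose 6-phosphate to fructose 6-phosphate, stood at 498, 479.5 and 479.9 CPM under stress and 333, 289 and 315 CPM in the control. With the siRNA it stood at 779, 322 and 369 CPM under stress and 408, 283 and 265 CPM without. The sets did not overlap without siRNA and did overlap with it, and the average effect missed the threshold (0.63, SE 0.19, edgeR adjusted p = 0.068).

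Of the 3 phosphofructokinase genes Pfkl alone passed. Pfkl, the liver-type subunit (chromosome 20, 11393877 to 11415882), stood at 250.3, 249 and 207 CPM under stress and 79.9, 66.3 and 69.5 CPM in the control. With the Ddx5 siRNA it stood at 344, 161 and 205 CPM under stress and 128, 76.5 and 70.2 CPM without. The stressed libraries were higher without overlap in both sets, by 1.71 (SE 0.26, edgeR adjusted p = 0.0062) and 1.37 (SE 0.26, adjusted p = 0.023; 1.32 without both replicate 1 libraries). The muscle-type Pfkm and platelet-type Pfkp genes had average effects of 0.19 (SE 0.14) and 0.37 (SE 0.13) and did not pass. The difference between these paralogs' effects was not tested.

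Pfkfb3, whose enzyme makes the phosphofructokinase activator fructose 2,6-bisphosphate (chromosome 17, 70684134 to 70713726), stood at 95.5, 149 and 98.2 CPM under stress and 33.4, 31.3 and 30.2 CPM in the control. In cells with the Ddx5 siRNA its level was 196, 80.6 and 99.6 CPM under stress and 44.4, 27.6 and 26.4 CPM without. It rose by 1.85 (SE 0.31, edgeR adjusted p = 0.012) and 1.94 (SE 0.31, adjusted p = 0.0093; 1.74 without both replicate 1 libraries), with no overlap in either set. Pfkfb1, Pfkfb2 and Pfkfb4 lay between 0.310 and 8.67 CPM over all libraries and did not pass in either set. The second Pfkfb4 locus reached 1.31 CPM at most and had no count in any Ddx5 siRNA library, so no fold is given.

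**Figure D3:**
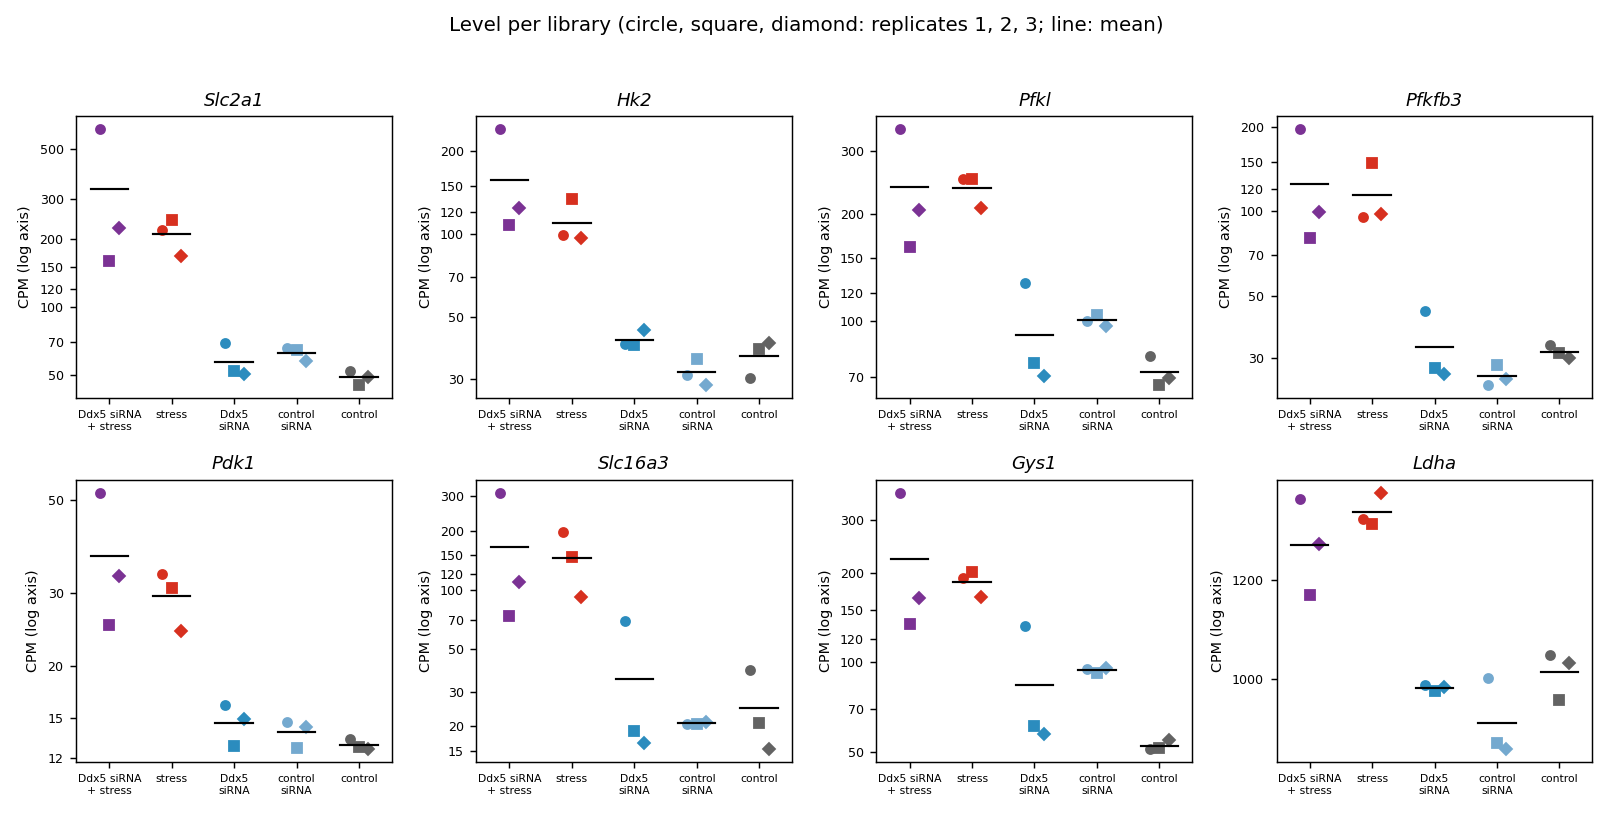
Level in CPM (log axis) of 8 genes in each of the 15 libraries, with groups on the horizontal axis, symbols for replicate numbers and a line at the group mean. In each panel the 6 stressed libraries lie above the control libraries, and the circle of the Ddx5 siRNA plus stress group is the highest point of all except for Ldha.

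At the middle steps from aldolase to enolase, Aldoa, Pgk1, Pgam1 and Eno1 rose in the average effect, by 0.44 to 0.50. Aldoa, the main aldolase (chromosome 1, 198228387 to 198233588), stood at 1473, 1318 and 1480 CPM under stress against 966, 894 and 1061 CPM in the control, and at 1754, 1064 and 1207 CPM under stress against 1198, 976 and 956 CPM without in cells with the siRNA. The groups were apart without siRNA and overlapped with it, and Aldoa rose in the average effect (0.46, SE 0.11, edgeR adjusted p = 0.025). Pgk1 (chromosome X, 77263359 to 77279367), the first step that yields ATP, stood at 757, 776 and 704 CPM under stress and 598, 514 and 469.8 CPM in the control, and at 971, 609 and 711 CPM with stress and 627, 491 and 493 CPM without it in cells with the siRNA. It rose by 0.50 on average (SE 0.11, adjusted p = 0.013). Pgam1, the main phosphoglycerate mutase (chromosome 1, 261158261 to 261165808), stood at 442, 446 and 421 CPM under stress and 342, 305 and 304 CPM in the control, and at 638, 346 and 426 CPM with stress and 406, 313 and 309.7 CPM without it in cells with the siRNA. It rose by 0.46 on average (SE 0.12, adjusted p = 0.036). For both genes the stressed libraries lay above the control without overlap, and the groups overlapped in cells with the siRNA.

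Eno1, the enolase of most tissues (chromosome 5, 167288223 to 167299609), stood at 1758, 1828 and 1883 CPM under stress and 1224, 1254 and 1347 CPM in the control. With the siRNA it stood at 2080, 1396 and 1584 CPM under stress and 1475, 1193 and 1250 CPM without. It rose by 0.44 on average (SE 0.09, edgeR adjusted p = 0.012), with overlap in the siRNA cells alone. Gapdh (chromosome 4, 157676595 to 157679962), often used to normalise other genes, stood at 1671, 1648 and 1559 CPM under stress and 1221, 1247 and 1225 CPM in the control, and at 2094, 1373 and 1496 CPM with stress and 1504, 1303 and 1327 CPM without it in cells with the siRNA. Its average effect of 0.33 (SE 0.09) was just outside the threshold (adjusted p = 0.051). Tpi1 (chromosome 4, 157328379 to 157331905) was listed at only 12.6, 11.4 and 8.13 CPM under stress and 7.96, 5.98 and 1.98 CPM in the control, and at 13, 9.95 and 11.9 CPM with stress and 7.21, 3.48 and 6.31 CPM without it in cells with the siRNA (average 1.03, SE 0.31, adjusted p = 0.068). Other loci that the file describes with the same protein held 88.3% of the counts for triose phosphate isomerase and 35.4% of those for Gapdh, so the values of these genes are uncertain. That share was 4.58% for Eno1 and 4.37% for Ldha.

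Pkm (chromosome 8, 64481172 to 64502722), which makes pyruvate, stood at 1627, 1549 and 1603 CPM under stress and 1162, 1156 and 1284 CPM in the control. With the siRNA it stood at 2351, 1249 and 1389 CPM under stress and 1609, 1110 and 1075 CPM without. The groups overlapped in the second set, and the average effect did not pass (0.40, SE 0.14, edgeR adjusted p = 0.11). The second Pkm locus, on chromosome 20, held 4.26% of the Pkm counts. A count per gene does not separate the M1 and M2 splice forms of this gene, so they were not analysed here.

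Ldha and both monocarboxylate carrier genes rose in the average effect. Ldha, the subunit that favours lactate formation (chromosome 1, 102900286 to 102909707), stood at 1344, 1331 and 1410 CPM under stress and 1045, 962 and 1030 CPM in the control. With the Ddx5 siRNA it stood at 1395, 1168 and 1283 CPM under stress and 988, 978 and 984 CPM without. Neither set overlapped, and the log2 fold changes of 0.43 (SE 0.09, edgeR adjusted p = 0.032) and 0.38 (SE 0.09, adjusted p = 0.060) gave an average of 0.41 (SE 0.06, adjusted p = 0.0016). Ldhb, the heart-type subunit, had an average effect of 0.17 (SE 0.23) and did not pass. Slc16a3, which encodes the lactate exporter MCT4 (chromosome 10, 110138586 to 110148358), stood at 197, 147 and 91.2 CPM under stress and 38.6, 20.8 and 15.3 CPM in the control. With the siRNA it stood at 312, 73.5 and 109.6 CPM under stress and 69, 19 and 16.4 CPM without. The stressed libraries were higher without overlap in both sets, but replicate 1 was the highest of its group in each of these 4 groups, and the gene passed in the average effect only (2.40, SE 0.48, adjusted p = 0.016; 2.54, SE 0.68, adjusted p = 0.11 without siRNA and 2.25, SE 0.67, adjusted p = 0.19 with it).

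Slc16a1, which encodes the monocarboxylate carrier MCT1 (chromosome 2, 207108552 to 207128554), stood at 75.4, 58.7 and 56.4 CPM under stress and 38.8, 35.4 and 44.4 CPM without stress in cells with the Ddx5 siRNA. In cells without siRNA it stood at 40.8, 50.3 and 40.3 CPM under stress and 38.7, 33.9 and 37 CPM in the control. It rose by 0.68 with the siRNA (SE 0.13, edgeR adjusted p = 0.015), and the value without was 0.26 (SE 0.13, adjusted p = 0.36). The difference between these effects, 0.42 (SE 0.18), did not pass (adjusted p = 1, unadjusted p = 0.036).

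Around pyruvate dehydrogenase, Pdk1, a kinase that inhibits the enzyme (chromosome 3, 58530870 to 58558027), stood at 33.2, 30.8 and 24.3 CPM under stress and 13.4, 12.7 and 12.6 CPM in the control. In cells with the Ddx5 siRNA its level was 52, 25 and 32.9 CPM under stress and 16.1, 12.8 and 14.9 CPM without. It rose by 1.19 (SE 0.21, edgeR adjusted p = 0.0093) and 1.33 (SE 0.21, adjusted p = 0.0046; 1.06 without both replicate 1 libraries), with no overlap in either set. Pdk2 and Pdk3 each had an average effect of 0.12 (SE 0.16 and 0.17) and did not pass. Pdp1, a phosphatase that reactivates pyruvate dehydrogenase, fell by 0.76 under stress without siRNA (SE 0.13, adjusted p = 0.0078) and by 0.65 on average (SE 0.09, adjusted p = 0.00057). It was the one gene that passed of 7 tested for the pyruvate dehydrogenase complex and its regulators in the average effect. Mpc2 (chromosome 13, 83681322 to 83700213), a subunit of the carrier that brings pyruvate into mitochondria, stood at 34.1, 24.9 and 31.1 CPM under stress and 42.1, 32.4 and 34.4 CPM in the control, and at 32.6, 27.4 and 28.8 CPM with stress and 35.9, 34.4 and 28.8 CPM without it in cells with the siRNA. These overlapped, and neither Mpc2 nor Mpc1 (average -0.11, SE 0.12) passed.

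Of the glycogen genes, Gys1, which encodes glycogen synthase (chromosome 1, 101427195 to 101447092), stood at 192, 201 and 166 CPM under stress and 51.2, 51.6 and 54.7 CPM in the control. With the siRNA it stood at 370.4, 134 and 165 CPM under stress and 133, 61 and 57.3 CPM without. It rose by 1.83 without siRNA (SE 0.38, edgeR adjusted p = 0.040) and by 1.62 on average (SE 0.27, adjusted p = 0.0044). Gbe1, the branching enzyme (chromosome 11, 7210209 to 7485890), stood at 29.4, 13.4 and 14.9 CPM under stress and 11.2, 7.95 and 9.94 CPM without in cells with the siRNA, and at 15.7, 14.1 and 12 CPM under stress and 11.9, 9.16 and 12.3 CPM in the control without siRNA. It passed in the average effect only (0.66, SE 0.18, adjusted p = 0.042). Pgm1, which links glucose 1-phosphate and glucose 6-phosphate, did not pass (0.08, SE 0.21), and it was the one well-detected gene that was lowest in replicate 1 of both Ddx5 siRNA groups.

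The calls of the average effect rested on 12 libraries. With any 1 of its 12 libraries left out, 14 of the 17 kept their call, and Aldoa, Pgam1 and Gbe1 kept it in 6, 4 and 4 of 12 runs. Aldoa was lost without stress replicate 1 or 3, control replicate 1 or 2, or Ddx5 siRNA replicate 2 or 3 (edgeR adjusted p up to 0.073). Pgam1 was lost without any stress or control library or Ddx5 siRNA replicate 2 or 3 (up to 0.10). Gbe1 was lost without Ddx5 siRNA plus stress replicate 1, Ddx5 siRNA replicate 2 or 3, stress replicate 1 or 2, or any control library (up to 0.12). In stress against control, Pfkl alone kept its call in all 6 runs. Hk2 was lost without control replicate 1 (0.052), Pdk1 without stress replicate 1 (0.052), Pfkfb3 without any control library (0.056 to 0.063), and Ldha and Gys1 without any of the 6 (0.073 to 0.11 and 0.069 to 0.16). Slc2a1 kept its call only without stress replicate 3 (0.041) and Hk1 only without control replicate 3 (0.046). The number of calls was 3 without stress replicate 1 (0.485% of all genes rose) and 4 without replicate 2 (0.492%). It was 2, 3 and 4 without control replicate 1, 2 and 3 (0.464%, 0.643% and 0.65% of all genes).

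In cells with the Ddx5 siRNA, Hk2 and Pdk1 kept their calls in all 6 runs. Leaving out Ddx5 siRNA replicate 2 took away the calls of Slc2a1, Pfkl and Pfkfb3 (edgeR adjusted p = 0.077, 0.14 and 0.067), and leaving out replicate 3 did so as well (0.073, 0.11 and 0.066). Slc16a1 missed the threshold without the same replicate 2 (0.11) and without replicate 1 of the stressed siRNA cells (0.054). The number of calls was 10 without Ddx5 siRNA plus stress replicate 2, and 2 and 3 without Ddx5 siRNA replicate 2 and 3. The share of all genes called in these runs is not given here.

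Libraries of the same replicate number had correlated deviations in each stress comparison. In cells with the Ddx5 siRNA, 2 of the 3 numbers correlated best with their own number. The block on the number was fitted over all 15 libraries, though the numbers were not taken to pair those of the siRNA comparisons. With this block 12 loci rose under stress without siRNA, where 1.87% of all genes did. The gains were Slc16a3 (2.61, edgeR adjusted p = 0.018), Pgk1 (adjusted p = 0.025), Aldoa (adjusted p = 0.028) and Eno1 (adjusted p = 0.030). With the Ddx5 siRNA 11 rose, where 1.55% of all genes did, and the gains were Slc16a3 (2.28, adjusted p = 0.032), Pgk1 (0.032), Ldha (0.033), Gbe1 (0.036) and Hk1 (0.049). The blocked average effect had 22 calls, where 5.43% of all genes rose, and added Gapdh (adjusted p = 0.019), Gpi (0.030), Tpi1 (0.041) and Pkm (0.046), and the second Pfkfb4 locus (0.050 as rounded).

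Levels can be compared between paralogs only per length, so the share of each step was taken from CPM per kilobase of gene. Among the 3 hexokinase genes Hk2 held 19.5 ± 3.2% under stress and 10.7 ± 0.10% in the control (SD, n = 3), and with the siRNA 24.6 ± 4.4% under stress and 11.5 ± 0.50% without. Hk1 kept the largest share in every group. Pfkl held 65.2 ± 0.59% of the phosphofructokinase step under stress and 41.3 ± 1.9% in the control, and with the siRNA 61.9 ± 2.6% and 43.4 ± 3.8% with and without stress. Pfkfb3 held 90.6 ± 1.3% of its step under stress and 71.4 ± 0.85% in the control. In 2 of 10 steps the leading gene by group mean differed, with an exception in 1 library each. Pdk1 led with 42.9 ± 4.4% under stress, where Pdk2 led in the control with 42.6 ± 4.8% (Pdk1 27.1 ± 1.2%). In stress replicate 3, however, Pdk2 held 38.8% and Pdk1 38.3%, and without length scaling Pdk3 led in every control library (38.3 to 45.9%). Slc16a3 led with 78.2 ± 6.3% under stress, where Slc16a1 led in the control with 57.4 ± 11% (Slc16a3 42.6 ± 11%). In control replicate 1 Slc16a3 already led, with 53.7%. Slc2a1, Aldoa, Pgam1, Eno1 and Ldha held over 90% of their steps in all groups. The shares here and the step sums below count 1 locus per gene name and leave out other loci described with the same protein. Those loci held 86.3% of the counts for Slc2a3, 49.5% for Eno2, 88.3% for Tpi1 and 35.4% for Gapdh. These shares are descriptions, with no test.

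**Figure D4:**
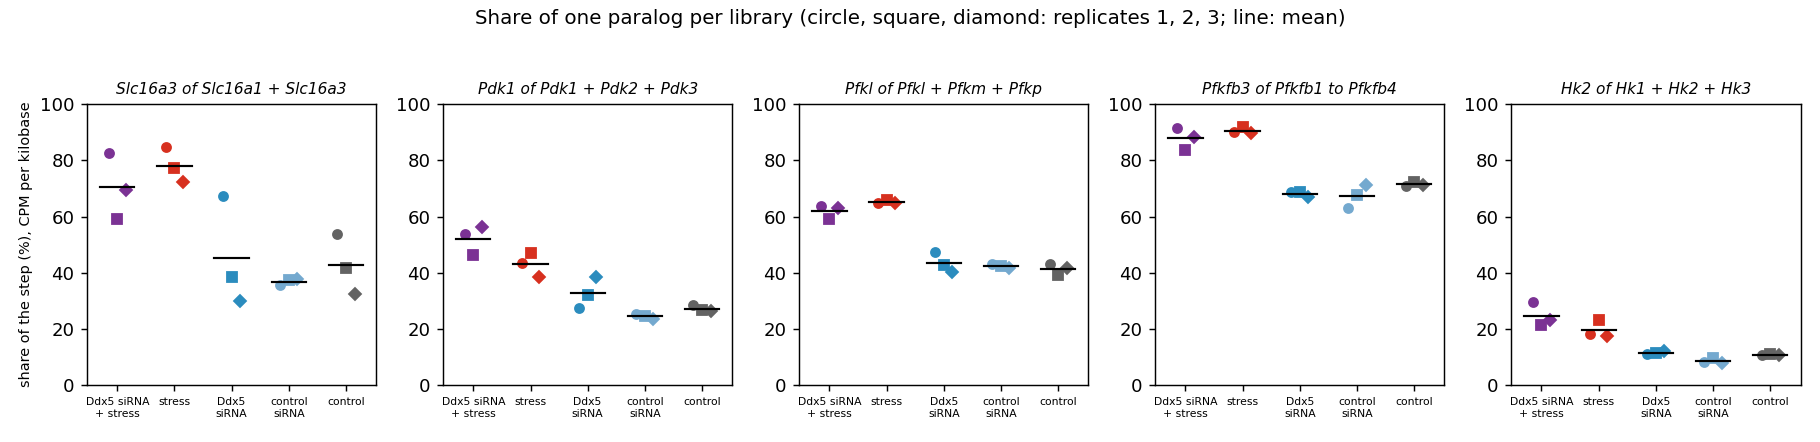
Share of 1 paralog in the summed level of its step, in percent of CPM per kilobase, for each library by group, with a line at the group mean. Stressed libraries lie above the control libraries in each panel, as for Pfkl at 65.2% under stress and 41.3% in the control.

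Summed per step on the same scale, glucose transport reached 81.5 ± 15 CPM per kilobase under stress and 19.2 ± 1.6 in the control (SD, n = 3), and monocarboxylate transport 85.3 ± 25 under stress and 26.3 ± 6.3 in the control. The steps with most RNA were Gapdh (1620 ± 59 under stress and 1230 ± 14 in the control), enolase (999 ± 25 under stress and 707 ± 23 in the control), aldolase (898 ± 58 under stress and 611 ± 52 in the control) and lactate dehydrogenase (869 ± 27 under stress and 649 ± 30 in the control). The transport steps and the regulatory Pfkfb step (26.7 ± 6.7 under stress and 9.40 ± 0.54 in the control) were lower in level, and the mitochondrial pyruvate carrier stood at 110 ± 17 under stress and 128 ± 20 in the control.

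Genes of neighbouring pathways were taken from lists, and their counts stand beside the 4.07% of all genes that rose and the 1.48% that fell in the average effect. In the average stress effect 1 of 7 tested pentose phosphate genes rose, H6pd, the enzyme of that route in the endoplasmic reticulum (0.64, SE 0.10, edgeR adjusted p = 0.00088). None of 15 tricarboxylic acid cycle genes, 4 gluconeogenesis genes or 11 genes of glucose sensing passed (medians of -0.06, 0.16 and 0.02). Of 16 other glycolysis isozymes and transporters 3 rose: Slc2a6, a transporter gene (0.43, SE 0.09), Pdk4, another pyruvate dehydrogenase kinase (2.56, SE 0.57), and Bpgm, which makes 2,3-bisphosphoglycerate (0.29, SE 0.08). Pdk4 was near the detection floor without stress, so its fold is uncertain. It averaged 1.73 CPM under stress and 0.283 CPM in the control (edgeR adjusted p = 0.14), and 1.88 and 0.313 CPM with and without stress in cells with the Ddx5 siRNA. Of 18 glycogen genes 2 rose, the glycogen phosphorylase gene Pygl (1.24, SE 0.27) and Ppp1r3b, which directs a phosphatase to glycogen (1.79, SE 0.41). Both varied widely in the Ddx5 siRNA plus stress group, at 58.8 ± 33 CPM for Pygl and 10.5 ± 10 CPM for Ppp1r3b. Of 7 HIF pathway genes 2 rose, Vhl and Egln3. Vhl, which marks HIF for breakdown, had a value of 0.50 (SE 0.07). Egln3, an oxygen-sensing hydroxylase, passed in the average effect (edgeR adjusted p = 0.015). It averaged 3.68 ± 2.0 CPM under stress and 0.140 ± 0.19 CPM in the control, which did not pass alone (adjusted p = 0.14). With the Ddx5 siRNA Egln3 averaged 9.58 ± 14 CPM under stress and 0.434 ± 0.49 CPM without. At such unstressed levels a fold is not meaningful. Hif1a itself had an average effect of 0.12 (SE 0.16). These lists and the members were all chosen with earlier results known, and whether their shares differ was not tested. Txnip, which encodes an inhibitor of glucose uptake, stood at 11.2, 5.36 and 6.80 CPM under stress and 47.2, 17.4 and 16.6 CPM in the control, and did not pass.

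The Ddx5 siRNA was compared with the control siRNA in unstressed cells. Of the 38 loci 1 fell and none rose, where 0.163% of all genes fell and 0.233% rose. The call was Eno3, the muscle-type enolase (chromosome 10, 57278307 to 57283653), at 63, 41.1 and 36.9 CPM with the Ddx5 siRNA and 113, 101 and 111 CPM with the control siRNA (-1.21, SE 0.23, edgeR adjusted p = 0.044), with no overlap. The call was kept only without Ddx5 siRNA replicate 1 (0.0042), and was lost without replicate 2 or 3 (0.25 each) or without control siRNA replicate 1 (0.21), 2 (0.16) or 3 (0.16). Negative values were found at 28 of the 38 loci, with a median of -0.14 against 0.01 over all genes, of which 51% had a positive value. The Ddx5 siRNA libraries lay below the control siRNA libraries at 7 loci and above them at 1, against 13.2% and 10.7% of all genes.

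Without both replicate 1 libraries 14 loci were called, 13 lower and 1 higher, in a fit where 7.02% of all genes fell and 6.34% rose. The 13 were Eno3 (-1.47), Aldoc (-1.23), Ldhb and Pdk2 (-0.80 each), Pkm (-0.71), Gys1 (-0.67), Pdk3 (-0.65), Pfkm (-0.59), Gpi (-0.57), Eno1 (-0.46), Pfkl (-0.45), Gapdh (-0.39) and Pgk1 (-0.38), with edgeR adjusted p from 0.00016 (Pkm) to 0.037 (Ldhb). Pgm1 rose by 0.70 (adjusted p = 0.021). This setting was chosen after seeing the data. Ddx5 siRNA replicate 1 was the highest of its group at 32 of the 38 loci, and the lowest for Pgm1. Leaving it out lowers the group mean at those loci and raises it for Pgm1. The direction of these calls is therefore not independent of that choice. The same control siRNA libraries are compared with the control below. There Eno3, Pkm, Gys1, Gapdh, Pfkl, Pfkm, Gpi and Eno1 rose in a fit of those libraries alone. The part of the control siRNA libraries in these lower values was not tested. Pkm stood at 1609, 1110 and 1075 CPM with the Ddx5 siRNA and 1892, 1744 and 1722 CPM with the control siRNA, and the highest of the Ddx5 siRNA libraries was replicate 1 (-0.50, SE 0.20, adjusted p = 0.24 with all libraries). Eno1 stood at 1475, 1193 and 1250 CPM with the Ddx5 siRNA and 1826, 1627 and 1576 CPM with the control siRNA, and Gapdh at 1504, 1303 and 1327 CPM with the Ddx5 siRNA and 1862, 1679 and 1612 CPM with the control siRNA, and both were lower without overlap. Of the genes called under stress, Slc2a1 (-0.13, SE 0.39), Pdk1 (0.07, SE 0.21) and Ldha (0.09, SE 0.09) did not pass here with all libraries or without both replicate 1 libraries. The 7 fibroblast markers summed to 51000 to 80600 CPM with the Ddx5 siRNA and 71300 to 86200 CPM with the control siRNA. The 7 muscle markers summed to 22.9 to 44.2 CPM with the Ddx5 siRNA and 17.8 to 22.9 CPM with the control siRNA, and Myh1, which rose by 1.14 (adjusted p = 0.018), was the one marker called. The part of these markers in the result was not tested.

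The control siRNA itself was set against the control without siRNA. Of the 38 loci 1 rose and none fell, again Eno3, where 2.1% of all genes rose and 1.77% fell. It stood at 113, 101 and 111 CPM with the control siRNA and 54.1, 45.8 and 30.1 CPM in the control (1.32, SE 0.23, edgeR adjusted p = 0.0075), and the call was kept without any 1 of the 6 libraries. This comparison and the one above share the control siRNA libraries, in which Eno3 was higher than in the other 12. The control siRNA libraries lay above the control at 15 of the 38 loci and below at 1 (16% and 15.4% of all genes), with a median of 0.24 and 27 positive values against 49.5% of all genes. Gys1 stood at 94.9, 92.1 and 95.7 CPM with the control siRNA and 51.2, 51.6 and 54.7 CPM in the control (0.84, SE 0.37, adjusted p = 0.23), and Gapdh at 1862, 1679 and 1612 CPM with the control siRNA and 1221, 1247 and 1225 CPM in the control (0.48, SE 0.13, adjusted p = 0.057). In a fit of these 6 libraries alone 9 rose, where 5.31% of all genes did, and the gains were Gys1, Pkm, Gapdh, Pfkl, Pfkm, Gpi, Eno1 and Pfkp. All of these except Pfkp were also called lower with the Ddx5 siRNA than with the control siRNA without both replicate 1 libraries. The 7 fibroblast markers summed to 71300 to 86200 CPM with the control siRNA and 37500 to 43300 CPM in the control, and Col1a1 rose by 0.91 (adjusted p = 0.022). Most of the sum was Col1a1, at averages of 64500 and 34300 CPM. By average, Col1a2, Col3a1, Lum and Thy1 were also higher with the control siRNA. Dcn (2.92 against 5.51 CPM) and Pdgfra (83.3 against 115 CPM) were lower. Myh1 fell by 0.86 (adjusted p = 0.0083) and Prg4, a lubricant gene among the chondrocyte markers, fell by 1.91 (adjusted p = 0.043), and the part of such markers in the result was not tested. Pdp1 fell by 0.62 (SE 0.13, adjusted p = 0.017), and Pck2, the mitochondrial enzyme that makes phosphoenolpyruvate, rose by 1.78 (SE 0.28, adjusted p = 0.0061).

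**Figure D5:**
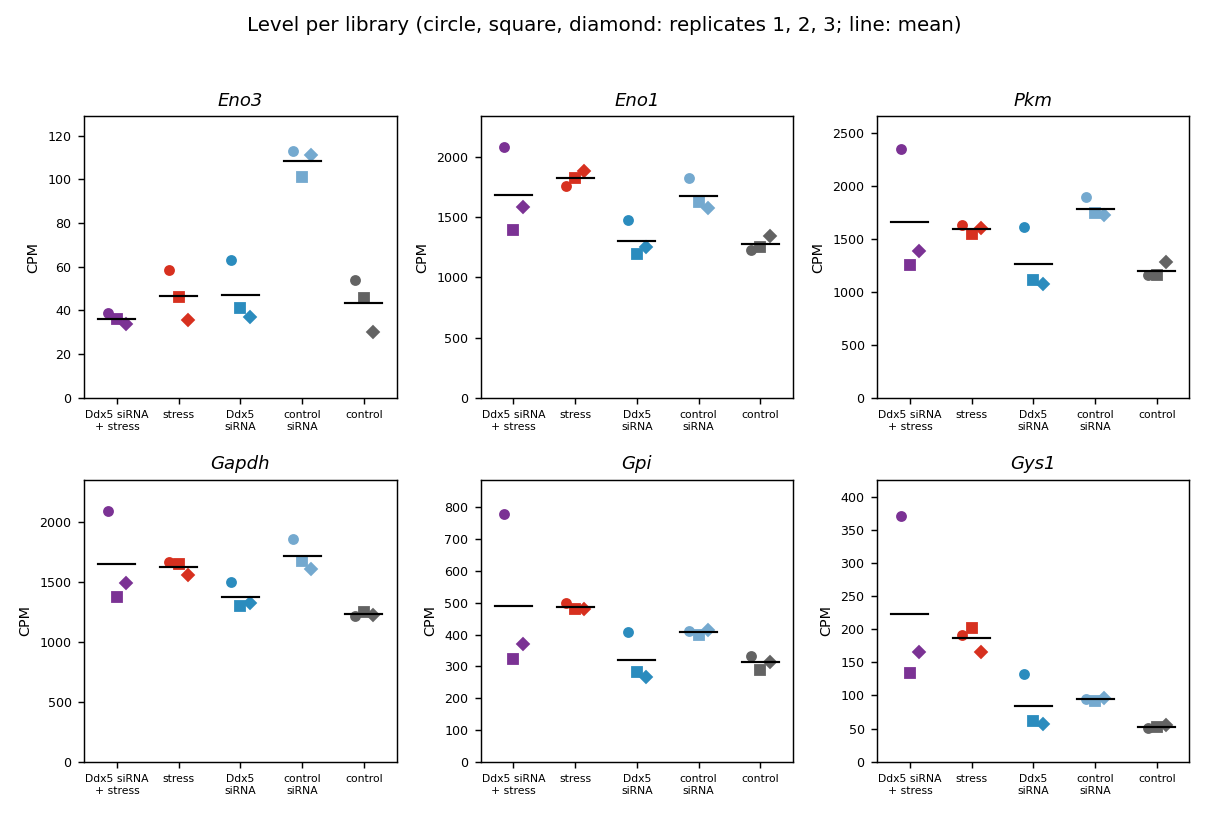
Level in CPM of 6 genes in each of the 15 libraries, with groups on the horizontal axis, symbols for replicate numbers and a line at the group mean. The control siRNA libraries of Eno3, at 101 to 113 CPM, stand above all others, and replicate 1 (circle) of the Ddx5 siRNA group is the highest of that group in every panel.

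Under stress, the Ddx5 siRNA was compared with stress alone. None of the 38 loci passed (edgeR, lowest adjusted p = 0.15, for Slc16a1), where 0.00707% of all genes rose and 0.0212% fell, and 1 had an unadjusted p under 0.05, as did 11.6% of all genes. DESeq2 called 1, Slc16a1. Slc16a1 stood at 75.4, 58.7 and 56.4 CPM with the Ddx5 siRNA and stress and 40.8, 50.3 and 40.3 CPM with stress alone (0.54, SE 0.13), and it was the one locus without overlap (7.57% of all genes lay higher and 7.32% lower). Values were positive at 32 of the 38 loci, with a median of 0.12 against 0.03 over all genes, of which 53.9% had a positive value. Replicate 1 of the Ddx5 siRNA plus stress group was the highest of its group at 32 of the 38 loci. The number of positive values and the median without that library are not given here. Without both replicate 1 libraries Gpi (-0.49, adjusted p = 0.024) and Aldoc (-0.94, adjusted p = 0.046) fell, where 0.46% of all genes fell and 0.655% rose, though both values were above 0 with all libraries (0.01, SE 0.26, and 0.38, SE 0.67). Aldoc, a minor aldolase, shows how far 1 library stood from the others, at 65.6, 11.5 and 12.2 CPM with the Ddx5 siRNA and stress against 24.7, 21.4 and 22.2 CPM with stress alone. No locus differed between the effects of the Ddx5 siRNA with and without stress (edgeR, lowest adjusted p = 0.35, where 0% of all genes passed). At an unadjusted p under 0.05 there were 3 of the 38, against 8.33% of all genes, and DESeq2 called none.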

How the data were processed

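RNA-seq was read from a deposited table of whole-number read counts per gene from the authors, covering 15 libraries of rat TMJ primary chondrocytes in 5 groups of 3. A separate table holds the deposited FPKM values, which were used only to check that they follow from the counts and gene lengths. The labels and headers name no aligner, counter, strand setting or genome build. The deposited counts were scaled by TMM and tested with edgeR (version 4.0.16, R 4.3.3), in its robust quasi-likelihood test on all 15 libraries with group as the only term. The filterByExpr function removed genes of low count, and p-values were adjusted by Benjamini-Hochberg over 14147 genes, with a call at an adjusted p under 0.05. The 8 comparisons were stress without siRNA, stress with the Ddx5 siRNA, their average and difference, the Ddx5 siRNA without and with stress, their difference, and the control siRNA against the control. Each SE is the size of the log2 fold change divided by the square root of the F statistic of that test. The fit was tested on simulated data.

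The genes named are those called in any comparison, the most abundant gene of each step without a call, and the called genes of neighbouring lists. The members and lists were chosen with earlier results of these data known. Alternatives were RLE scaling, no filter, DESeq2 (version 1.42.0), fits of the compared groups alone, a block on replicate number, each library left out, and 1 setting chosen after seeing the data, both Ddx5 siRNA replicate 1 libraries left out. Deviations from the group mean correlated between libraries of the same number at 0.34, 0.27 and 0.40 in stress against control and at 0.59, 0.25 and 0.35 with the Ddx5 siRNA. All of these were above the 0.1 set as needed, so the numbers were taken to pair libraries there. This pairing is assumed from the data, since no label states it, and the correlations are modest. The 0.59 belongs to both replicate 1 libraries that stood apart. Library totals of 14309005 to 16219775 set the precision, and reads carry no molecular identifiers, so the floor of 3 counts covers counting error only.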

Additional observations from a re-analysis of the deposited data

How the results depend on the processing

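Shares of all genes beside the counts of member loci are those called in the same fit. They are not given for every count of 0 or every range with 1 library left out. RLE scaling moved no call. Stress against control called 8 loci, with 1.06% of all genes higher. It called 2 to 6 with 1 library left out (0.464% to 0.933% higher) and 12 with the replicate block (1.87% higher). It called 12 with DESeq2 (2.61% higher) and 19 with the block in the compared libraries alone (7% higher). Stress with the Ddx5 siRNA called 6, with 1.05% of all genes higher. It called 2 to 10 with 1 library left out, 11 with the block (1.55%), 13 with DESeq2 (2.16%), 0 in the compared libraries alone (0.148%) and 19 with the block in them (4.75%). The average effect called 17 (4.07% higher), and 14 to 20 with 1 library left out.

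The Ddx5 siRNA against the control siRNA called 1, where 0.163% of all genes were lower. It called 0 to 1 with 1 library left out, 0 without the filter on low counts, 0 in the compared libraries alone, 0 with the block in them, and 14 without both replicate 1 libraries (6.34% higher and 7.02% lower). Under stress it called 0, 0 to 0 with 1 library left out, 1 with DESeq2 (0.689% higher and 0.623% lower) and 2 without both replicate 1 libraries (0.46% lower), where Gpi (-0.49, edgeR adjusted p = 0.024) and Aldoc (-0.94, edgeR adjusted p = 0.046) changed sign. The control siRNA against the control called 1 (2.1% higher). It called 1 to 1 with 1 library left out, 2 with DESeq2 (4.27%), 4 with the block (4.69%), 9 in the compared libraries alone (5.31%) and 9 with the block in them (6.05%). Here the replicate numbers were not taken to pair libraries, with correlations of 0.07, 0.09 and 0.09, nor between both siRNAs (-0.08, 0.03 and -0.18) or under stress (0.31, 0.12 and 0.05). Both differences between effects called 0 member loci in all these settings, and the steps with another leading paralog numbered 2 with any 1 library left out. The cause of these shifts was not tested. At this depth 3 counts are 0.18 to 0.21 CPM, which limits Slc2a4, Hk3, Pfkfb4 and Slc2a3.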

Other observations

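Several of these enzymes have other loci in the table that the file describes with the same protein, which were looked up after the values of Tpi1 and Slc2a3 had been seen to be low. There were 8 such genes. Counts at the other loci made up 88.3% for Tpi1, 86.3% for Slc2a3, 49.5% for Eno2, 35.4% for Gapdh, 4.58% for Eno1, 4.37% for Ldha, 0.122% for Aldoa and 0.00465% for Pgk1. LOC100911515, described as triose phosphate isomerase on chromosome 9 (20213588 to 20217176, build not given), held 13732 counts against 1859 at Tpi1 and had a log2 fold change of 1.05 (SE 0.56) under stress against control, which did not pass (edgeR adjusted p = 0.41). Of the Gapdh copies, RGD1565368 and LOC685186 held 102654 and 88741 counts against 355566 at Gapdh, and their average stress effects of 0.33 and 0.35 (edgeR adjusted p = 0.054 and 0.058) stood beside 0.33 at Gapdh. The Ldha pseudogene AABR07069599.1 had an average stress effect of 0.39 (SE 0.07, edgeR adjusted p = 0.0023), beside 0.41 at Ldha. Whether these loci give their own transcripts or take reads from the main gene was not tested.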
